A study of Mus musculus with 18 samples.

Results

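The clustered histone genes are the copies of the genes for histones H1, H2A, H2B, H3 and H4 most of which lie together in the genome, and they were taken here as every gene of the count table whose symbol starts with Hist1h, Hist2h, Hist3h or Hist4h and that is not named as a pseudogene. This gave 69 of 43346 genes, with 6 in class H1, 20 in H2A, 18 in H2B, 12 in H3 and 13 in H4. Of these, 56 carry Hist1 names and lie on chromosome 13, 10 carry Hist2 names (chromosome 3) and 2 Hist3 names (chromosome 11), and Hist4h4 stands alone on chromosome 6. Hist1h2al, at chr13:51202727-51203065, lies far from the other Hist1 genes and is annotated as a processed pseudogene, and it had at most 11 counts in any library. RNA had been sequenced from EPCAM-positive crypt cells of the small intestine (SI) and the large intestine (LI), sorted by their GFP into 3 levels that stand for Lgr5+ cells of the crypt centre (high GFP), the border (medium GFP) and the rows beyond it (row >3, low GFP), and each of the 6 groups held 3 libraries that the study calls biological replicates. By the labels all mice carried the genotype Lgr5_eGFP_Iris_creERT2 on a C57BL/6 background and none was treated. The study's methods write the line as Lgr5eGFP-Ires-CreERT2 and give the background of its mice as mixed or C57/B6. GFP thus came from the Lgr5 locus in every group and no group lacked the allele. The labels give an age of 8 to 20 weeks, and the study's methods a wider range. This knock-in allele is known for patchy expression, so crypts without GFP were not sampled. The mouse behind each replicate number is not given in the sources used here, and p-values measure the spread between these libraries.

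Chromatin is built from nucleosomes, in which DNA is wound around the core histones H2A, H2B, H3 and H4, while H1, the linker histone, binds where the DNA enters and leaves. The clustered genes supply most of this protein while DNA is copied in S phase. Their mRNAs have no introns and, unlike other mRNAs, end in a stem-loop in place of a poly(A) tail, which the stem-loop binding protein Slbp holds for processing and translation and which lets the cell destroy the mRNA once replication stops. Histone mRNA is accordingly most abundant in dividing cells, of which the intestinal crypt holds many. The library kit is one that starts cDNA from random primers, so that RNA without a poly(A) tail can be read.

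The stem-loop was searched for after the stop codon in the annotated transcripts of GENCODE M21 (mm10). The search asked for a stem of 6 bases opening with GG, a loop of 4 opening with TT, and the exactly matching 6 bases. These openings are therefore common to all forms by the search, and other variants were not looked for. A match was found in 42 members, and a member without a match need not lack the stem-loop. The 6 forms are shown because they divide the members by class, with the loop in capitals. The first 3 were found only in H4 genes, in 7, 2 and 2 members, and the last 3 only in the other classes, in 24, 6 and 1 members.
H4 form 1: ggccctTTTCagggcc
H4 form 2: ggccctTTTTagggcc
H4 form 3: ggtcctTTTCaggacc
Form 4 of H1, H2A, H2B and H3: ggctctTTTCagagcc
Form 5 of H1, H2B and H3: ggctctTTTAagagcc
Form 6 of H2A: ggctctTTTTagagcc
In 21 members the annotated transcript ran over 100 bases past the stem-loop, so that reads counted for them can come from longer RNA.

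Promoters, from 250 bases before to 50 after the start, were matched for 62 members in RefSeq's table for GRCm38.p6. A promoter of each class is shown, 5′ to 3′ along the gene, because the motifs differ by class. Capitals mark matches on either strand to the TATA box, with the letters TATAAA, to CCAAT, which NF-Y binds, to the octamer ATGCAAAT, which Pou2f1 binds, and to the H1 box, with the letters AAACACA.
Hist1h1b, chr13:21780576-21780875, minus strand: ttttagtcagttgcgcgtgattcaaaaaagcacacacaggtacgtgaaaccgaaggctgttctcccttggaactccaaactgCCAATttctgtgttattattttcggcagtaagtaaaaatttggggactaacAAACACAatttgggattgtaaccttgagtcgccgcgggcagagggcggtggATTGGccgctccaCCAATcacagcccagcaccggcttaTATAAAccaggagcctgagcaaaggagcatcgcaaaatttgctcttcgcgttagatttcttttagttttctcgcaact
Hist1h2ad, chr13:23574131-23574430, plus strand: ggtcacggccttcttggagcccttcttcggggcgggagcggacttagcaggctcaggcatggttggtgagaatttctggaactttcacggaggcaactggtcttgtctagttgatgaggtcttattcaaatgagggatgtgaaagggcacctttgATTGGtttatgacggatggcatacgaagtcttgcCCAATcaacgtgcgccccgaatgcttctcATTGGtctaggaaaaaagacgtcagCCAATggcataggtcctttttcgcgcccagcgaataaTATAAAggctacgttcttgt
Hist1h2bb, chr13:23746484-23746783, plus strand: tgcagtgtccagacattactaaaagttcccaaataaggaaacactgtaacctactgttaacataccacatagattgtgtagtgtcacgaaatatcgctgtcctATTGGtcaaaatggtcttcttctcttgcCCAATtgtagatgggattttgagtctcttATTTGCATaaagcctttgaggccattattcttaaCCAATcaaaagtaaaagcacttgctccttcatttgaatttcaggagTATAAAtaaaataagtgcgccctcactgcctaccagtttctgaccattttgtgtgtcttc
Hist1h3b, chr13:23752095-23752394, plus strand: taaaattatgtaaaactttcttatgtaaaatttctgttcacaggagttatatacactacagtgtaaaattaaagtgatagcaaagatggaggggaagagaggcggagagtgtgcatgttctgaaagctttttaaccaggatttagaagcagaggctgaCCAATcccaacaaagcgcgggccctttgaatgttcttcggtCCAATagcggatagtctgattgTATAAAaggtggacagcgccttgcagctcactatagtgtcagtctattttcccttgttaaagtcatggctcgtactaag
Hist1h4d, chr13:23581318-23581617, plus strand: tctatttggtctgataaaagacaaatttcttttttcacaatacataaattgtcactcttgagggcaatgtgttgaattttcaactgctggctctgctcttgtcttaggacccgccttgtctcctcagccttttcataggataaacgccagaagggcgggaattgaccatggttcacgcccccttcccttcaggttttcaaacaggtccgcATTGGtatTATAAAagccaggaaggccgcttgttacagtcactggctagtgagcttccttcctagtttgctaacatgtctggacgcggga
TATAAA was present in 56.5% of the members' promoters and in 14.1% of all 27025 promoters of the table. CCAAT was present in every matched promoter of H1, H2A, H2B and H3 but in 25% of those of H4, against 37.8% of all promoters. The promoter of Hist1h4d shown above is among the H4 promoters with a match. The octamer was found in 38.9% of H2A and 43.8% of H2B promoters, in none of the other classes and in 1.74% of all promoters. The H1 box was found in 83.3% of H1 promoters and 7.25% of all promoters. H2A and H2B genes that start back to back share overlapping promoter windows, so their matches are not independent.

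Histone genes are close copies of each other, which bears on every value below. Of the 67 members in GENCODE M21, the median had 34.3% of its windows of 100 bases in common with another gene, 26 had more than 50% in common, and in Hist2h2aa1 and Hist2h3c1 all windows were shared. Levels are given as CPM, the count of a gene divided by the scaled library total. Of the 13 members under 1 CPM on average, 9 had more than 50% in common, against 17 of the 54 members with a window count at or above that level. Whether reads that fit several copies were dropped or split by the authors' counting is not given in the sources used here, and a low value of such a copy is uncertain. Hist2h2aa2, Hist2h3c1 and Hist1h2ba, a testis form of H2B, had no count in any library, and 66 members entered the tests.

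Counts per library summed to between 8312093 and 31940965 (median 21934851), of which the clustered histone genes took between 0.136% and 0.596%. Lgr5, the gene behind the sort, lay between 61.4 and 255 CPM in centre and border libraries, except for 7.84 in SI border replicate 3, and between 1.4 and 24 in row >3 libraries. The SI replicate 3 libraries stood apart. A set of 51 genes was high in the LI, with 20 CPM or more in all LI centre libraries and a level 20 times or more that of SI centre replicate 1. Relative to the LI centre, their median level was 60.7% in replicate 3 of SI centre, 86% in that of SI border and 104% in that of SI row >3. It was 1.75% to 5.23% in the SI libraries of replicates 1 and 2 other than SI centre replicate 1. The 0.835% of SI centre replicate 1 was bounded by the way the genes were chosen. The counts of histone calls, the class ratios and the leading genes of the SI are therefore also given without these 3 libraries. Markers of other cell types moved with the groups. The summed level of 8 goblet cell genes was 758 to 10704 CPM in SI centre and 32636 to 51746 in SI row >3 libraries (5 of the 8 rose and 1 fell in edgeR), and 7491 to 12226 in LI centre and 16261 to 25344 in LI row >3. That of 10 absorptive cell genes was 193 to 424 CPM in SI centre and 829 to 2106 in SI row >3 (4 rose). Immune and stromal lists summed to at most 77.7 and 18.3 CPM in any library, and Paneth genes to at most 12.6 CPM in the LI. In the SI the Paneth sums were 1803, 8475 and 2007 CPM in centre and 3365, 4866 and 224 in row >3 libraries, which overlap. Enteroendocrine genes summed to 45.1, 286 and 18.4 CPM in SI centre, against 399, 596 and 85.4 in SI row >3, higher in each replicate number. Tuft cell genes summed to 32.4, 39.3 and 531 CPM in SI centre, against 435, 457 and 115 in SI row >3, higher in replicates 1 and 2 only. The part of these cell types in the histone values was not tested. In bulk samples, fewer cells of a type and less RNA per cell cannot be told apart.

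Summed over all members, the clustered histone genes lay in replicates 1, 2 and 3 at 4643, 5442 and 3070 CPM in SI centre. They lay at 3982, 4542 and 3296 CPM in SI border and at 2310, 4061 and 1667 in SI row >3. In the LI the sums were 3360, 4700 and 4707 CPM in centre, 3207, 4428 and 4714 in border, and 3788, 3745 and 3709 in row >3. The SI row >3 sums lay lower on average but overlapped the SI centre sums, because SI row >3 replicate 2 was above SI centre replicate 3. The mean in SI row >3 (2679 ± 1239 CPM, SD, n = 3) was 0.611 times that in SI centre (4385 ± 1207), and 0.632 times without the replicate 3 libraries. In each replicate number the SI row >3 sum was below the SI centre sum, by 1.01, 0.42 and 0.88 on the log2 scale. In the LI, row >3 (3747 ± 39.6 CPM, SD, n = 3) was 0.881 times centre (4255 ± 775), with log2 differences of 0.17, -0.33 and -0.34 in replicates 1, 2 and 3, so replicate 1 went the other way. With scaling by library size alone these differences were -0.04, -0.39 and -0.43 and the LI groups did not overlap.

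**Figure D1:**
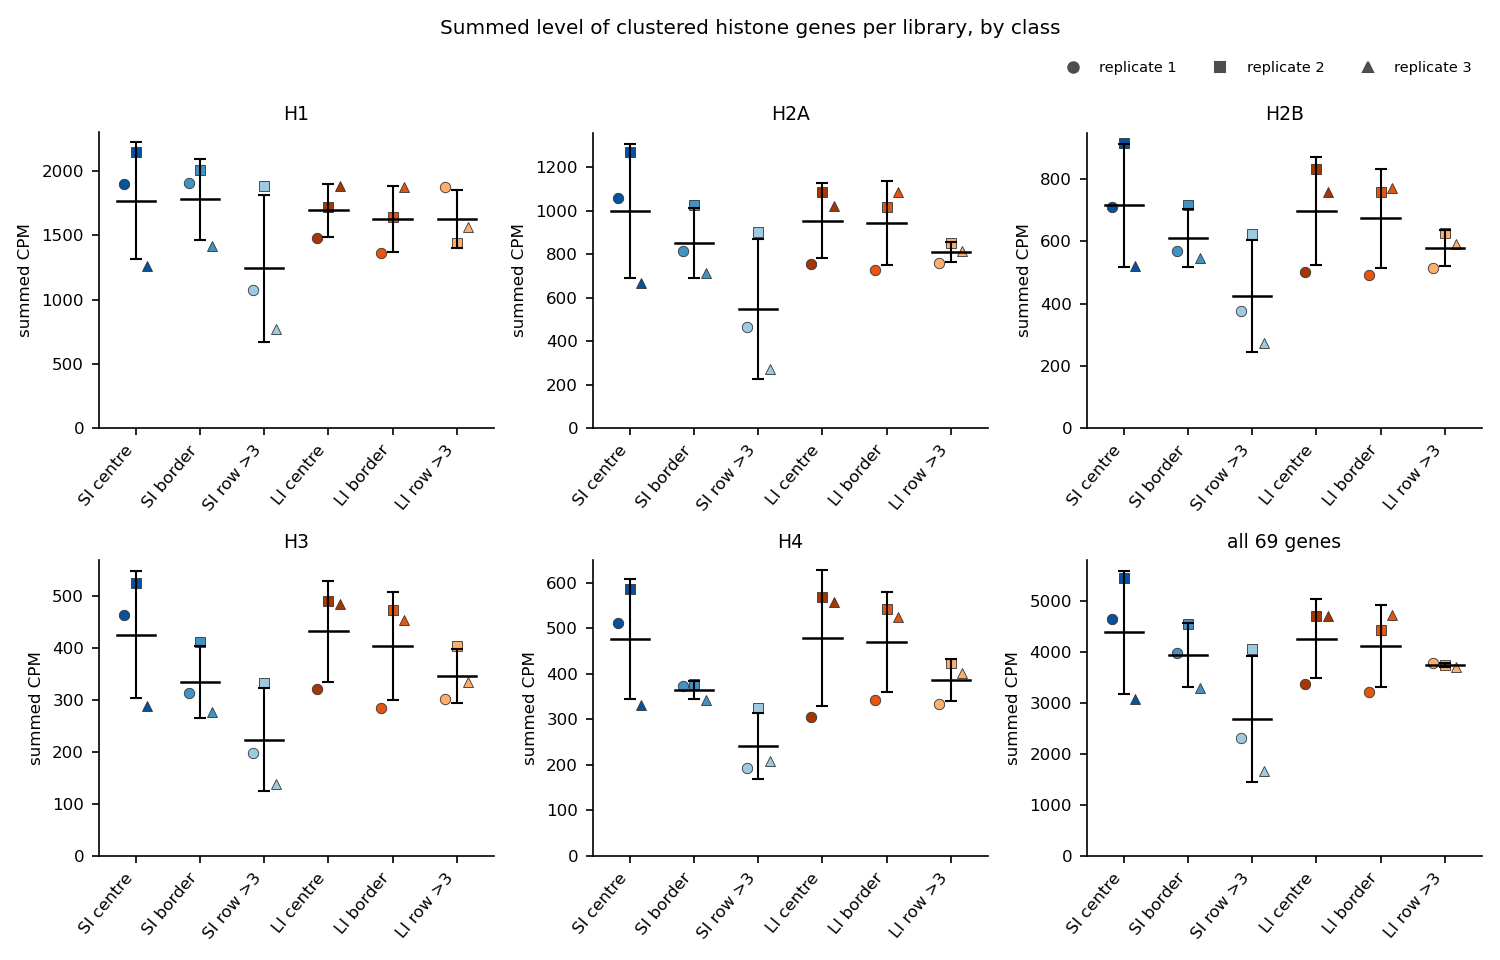
Summed CPM of the clustered histone genes in each library, by class and over all 69 genes, with the replicate number as the symbol and the mean ± SD of the 3 libraries of a group in black. SI row >3 has the lowest mean in every class, and SI row >3 replicate 2 lies above the other 2 libraries of its group.

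The mean ratio of row >3 to centre was lower in each core class than in H1. The H4 sum was 512, 586 and 330 CPM in SI centre and 193, 325 and 207 in SI row >3, without overlap. The mean ratio was 0.508 (0.472 without SI replicate 3). With RLE factors or library size alone in place of TMM the groups overlapped. The H3 sum had means of 426 ± 123 and 223 ± 99.2 CPM in these groups (SD, n = 3, ratio 0.524, or 0.536 without SI replicate 3). The H2A means were 999 ± 306 and 546 ± 322 (ratio 0.547, or 0.587) and the H2B means 715 ± 198 and 424 ± 180 (ratio 0.593, or 0.614), with overlapping libraries in each of these 3 classes. For H1 the ratio was 0.703 (0.732 without SI replicate 3), with 1769 ± 453 CPM in SI centre and 1244 ± 571 in SI row >3. The ratio of the H1 sum to the sum of the core classes within a library, which does not depend on depth, was 0.691, 0.65 and 0.701 in SI centre, against 0.875, 0.862 and 0.869 in SI row >3. These libraries did not overlap, and all 3 of row >3 had more H1 per core histone RNA. In the LI the same ratio was 0.785, 0.579 and 0.669 in centre and 0.983, 0.626 and 0.731 in row >3, where the groups overlapped but each number was higher in row >3. These ratios were looked at after the class sums and are given as a description.

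Within classes the level was spread over many copies. 11 of the 69 members reached 100 CPM on average over the 18 libraries, led by Hist1h1c (475 CPM), Hist1h1e (474) and Hist1h1d (363), linker histones of somatic cells. In H2A the leading members were Hist1h2af (162 CPM), Hist1h2ak (159) and Hist2h2ac (129), in H2B Hist2h2bb (125), Hist1h2bc (110) and Hist1h2bn (70.8), in H3 Hist1h3b (81.1), Hist1h3e (56.5) and Hist2h3b (48.9), and in H4 Hist1h4d (137), Hist1h4h (49.1) and Hist1h4c (39.7). Divided by the RefSeq length of the gene, a scale on which genes can be compared, Hist1h1c had 656 and Hist1h1e 607 CPM per kb, Hist1h4d 340, Hist1h2af 322, Hist2h2bb 253 and Hist1h3b 163. Hist1h1d overlies a transcript model in GENCODE M21 that runs 4884 bases past its stem-loop, the models of Hist1h1c, Hist1h1e and Hist1h4d run 840, 1153 and 770 bases past theirs, that of Hist1h1e overlaps Hist1h2be, and the identifier of Hist2h2bb belongs to Gm42743 in that release, so these values may hold reads of RNA longer than the RefSeq length. Hist1h1t, Hist1h2aa and Hist1h2ba, forms made in the testis, served as a check on background. Hist1h1t had 0 to 20 counts per library, Hist1h2aa 0 to 3 and Hist1h2ba none.

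The comparison of row >3 with centre cells of the SI asks what changes as cells leave the Lgr5+ zone, and it showed the clearest difference. By the quasi-likelihood test of edgeR, with p adjusted by Benjamini-Hochberg over all genes tested, 12 of the 66 members tested fell at an adjusted p under 0.05 and none rose, beside 5.82% of all 26717 genes tested that were called lower. The 12 were 1 member of H1, 2 of H2A, 4 of H2B, 2 of H3 and 3 of H4. Over all 66 members the median log2 fold change was -0.85, against 0.00 over all genes, and 61 of 66 lay below 0. Because libraries of the same number within a site deviated together, the same fit was made with the replicate number as a block, and then 44 members were called lower, the 12 among them, beside 10.5% of all genes. Without the SI replicate 3 libraries 24 were called lower, beside 7.09%, and 10 of the 12 were among them. DESeq2 called 26, which held all 12, beside 6.91%. In 13 members all SI row >3 libraries lay below all SI centre libraries, beside 12.3% of all genes, and in 52 every replicate number gave a lower value in row >3, beside 19.0% of all genes. For the fits that follow, each with a library left out, the share of all genes is not given. Their counts are therefore not set against all genes. The count of called members depended on single libraries. It was 39 without SI row >3 replicate 2 and 27 without SI centre replicate 3, and 5 and 4 without SI centre replicate 1 and 2, and 2 and 4 without SI row >3 replicate 1 and 3.

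Hist4h4 (chr6:136801553-136804415, minus strand), an H4 gene outside the large clusters, had the smallest adjusted p. Centre libraries of the SI had 37.1, 44 and 24.3 CPM, border libraries 20.4, 31 and 31.5, and row >3 libraries 11.5, 19.4 and 13.6. The SI row >3 libraries were all below the SI centre libraries, with a log2 fold change of -1.24 ± 0.27 (SE, adjusted p = 0.00342). In the LI it lay at 23, 46.4 and 37.3 CPM in centre and 25.7, 25.7 and 22.5 in row >3, where the groups overlapped.

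Hist1h3a (chr13:23761853-23762386, minus strand), an H3 gene, had 36.1, 37.7 and 22.5 CPM in SI centre and 11.5, 18.3 and 10.9 in SI row >3. The groups did not overlap and the log2 fold change was -1.24 ± 0.27 (SE, adjusted p = 0.00362). Hist1h3b (chr13:23752267-23752886, plus strand), the H3 gene with the highest level, had 110, 111 and 68.1 CPM in SI centre and 38.6, 64.6 and 30 in SI row >3. It fell by 1.11 ± 0.27 on the log2 scale (SE, adjusted p = 0.00781), again without overlap, although 56.6% of its windows are shared with other copies.

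Hist1h2ad (chr13:23574381-23574952, plus strand), an H2A gene, had 12.6, 12.5 and 6.84 CPM in SI centre and 4.05, 5.99 and 3.42 in SI row >3, a log2 fold change of -1.22 ± 0.31 (SE, adjusted p = 0.00995). Hist1h4h (chr13:23531050-23531519, plus strand), an H4 gene, had 66.5, 89.3 and 55.2 CPM in SI centre and 30.1, 40.2 and 23.3 in SI row >3, a log2 fold change of -1.17 ± 0.29 (SE, adjusted p = 0.0112). Neither gene's groups overlapped. The other 7 called members were Hist1h4d, Hist1h2bb, Hist1h1a, Hist1h2bl, Hist1h2bn, Hist1h2ac and Hist1h2bk, with log2 fold changes between -1.25 for Hist1h2bb and -0.78 for Hist1h2ac. Without SI replicate 3 the first 5 genes were called again, with log2 fold changes of -1.39 for Hist4h4, -1.31 for Hist1h3a, -1.09 for Hist1h3b, -1.32 for Hist1h2ad and -1.14 for Hist1h4h, while Hist1h2bb (adjusted p = 0.07 in edgeR) and Hist1h2ac (adjusted p = 0.0669) were not. Hist1h4d, whose sequence has no window in common with another gene, had 187, 172 and 111 CPM in SI centre and 65.1, 97.4 and 62.7 in SI row >3, without overlap.

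**Figure D2:**
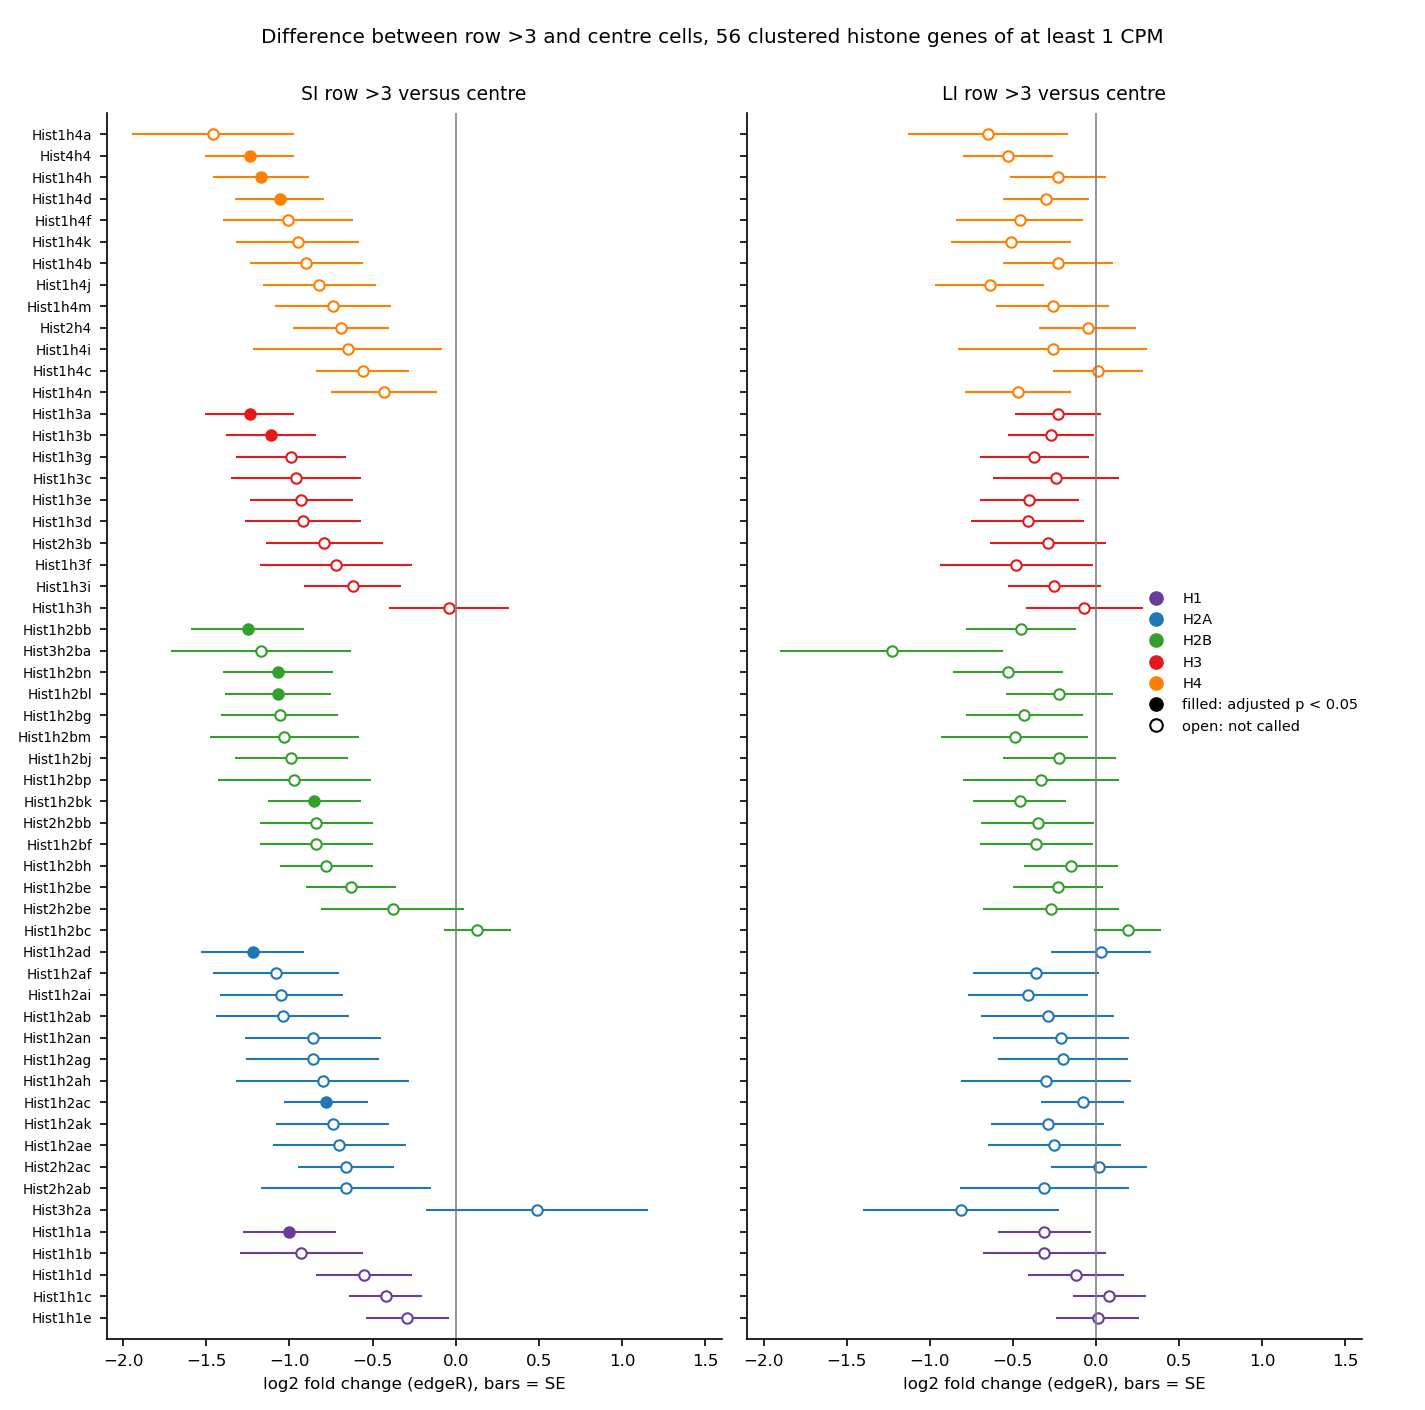
Log2 fold change (edgeR, bars are SE) of row >3 against centre cells in the SI (left) and the LI (right) for the 56 clustered histone genes of at least 1 CPM, ordered within class by the SI value, with called genes filled. In the SI 54 of 56 lie below 0 and 12 are called, and in the LI 50 of 56 lie below 0 and none is called.

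Among the linker histones, Hist1h1a (chr13:23763666-23764406) had 149, 139 and 81.9 CPM in SI centre and 50.9, 93.7 and 39.6 in SI row >3 and fell, with a log2 fold change of -1.0 ± 0.28 (SE, adjusted p = 0.0218). Hist1h1b (chr13:21779883-21780625) had 296, 325 and 154 CPM in SI centre and 117, 225 and 64.4 in SI row >3, a log2 fold change of -0.93 ± 0.37 (SE, adjusted p = 0.132, but 5.45e-05 with the block and 0.0149 without SI replicate 3). The log2 fold changes of Hist1h1d, Hist1h1c and Hist1h1e were -0.55 ± 0.29, -0.42 ± 0.22 and -0.29 ± 0.25 (SE, adjusted p 0.276, 0.268 and 0.594). With the block Hist1h1d and Hist1h1c were called (adjusted p 0.023 and 0.0419) and Hist1h1e was not (0.077). The ratio of Hist1h1b to Hist1h1c within a library was 0.602, 0.543 and 0.4 in SI centre, against 0.371, 0.434 and 0.24 in SI row >3, lower in each replicate number though the groups overlapped. The ratio of Hist1h1a to Hist1h1c was 0.303, 0.232 and 0.213 in SI centre, against 0.162, 0.18 and 0.147 in SI row >3, without overlap. In the LI that ratio was 0.248, 0.279 and 0.236 in centre and 0.168, 0.256 and 0.175 in row >3, lower in each number. The ratio of Hist1h1d to Hist1h1c was 0.842, 0.804 and 0.716 in SI centre, against 0.672, 0.818 and 0.599 in SI row >3, and that of Hist1h1e to Hist1h1c 1.11, 1.01 and 0.97, against 1.23, 1.19 and 0.899, and both overlapped. In the LI the ratio of Hist1h1d to Hist1h1c was 0.823, 0.807 and 0.769 in centre and 0.678, 0.74 and 0.665 in row >3, without overlap. The pairs were picked after the fold changes were seen, and the ratios carry no test.

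Of the members also known to be made as polyadenylated RNA, Hist1h1c is given above with the linker histones and was called lower with the block. Hist1h2bc (chr13:23684199-23692908), another of them, did not follow the other H2B genes. Its SI levels were 82.2, 113 and 95.9 CPM (centre), 108, 118 and 105 (border) and 95.6, 138 and 83.1 (row >3), which overlap, and its log2 fold change in SI row >3 against centre was 0.13 ± 0.20 (SE, adjusted p = 0.8). Hist1h2bb, which lies in the same cluster at chr13:23746734-23747241, had 68.2, 107 and 59.1 CPM in SI centre and 25.7, 50.7 and 21.7 in SI row >3, a log2 fold change of -1.25 ± 0.34 (SE, adjusted p = 0.0199). Their ratio, Hist1h2bb to Hist1h2bc, was 0.83, 0.948 and 0.616 in centre, 0.42, 0.54 and 0.48 in border and 0.269, 0.366 and 0.261 in row >3 libraries of the SI, so none of the 3 SI groups overlapped. In the LI it was 0.549, 0.779 and 0.671 in centre, 0.489, 0.657 and 0.611 in border and 0.372, 0.494 and 0.443 in row >3, where row >3 lay below centre. Hist2h2be lay between 3.76 and 15.3 CPM and Hist3h2a between 0.184 and 2.55 over the 18 libraries, and their log2 fold changes in SI row >3 against centre were -0.38 ± 0.43 and 0.49 ± 0.67 (SE). Hist1h3h, at 3.4 to 9.71 CPM, was the H3 gene nearest to no difference (-0.04 ± 0.36, SE), and 92% of its windows are shared with other copies.

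**Figure D3:**
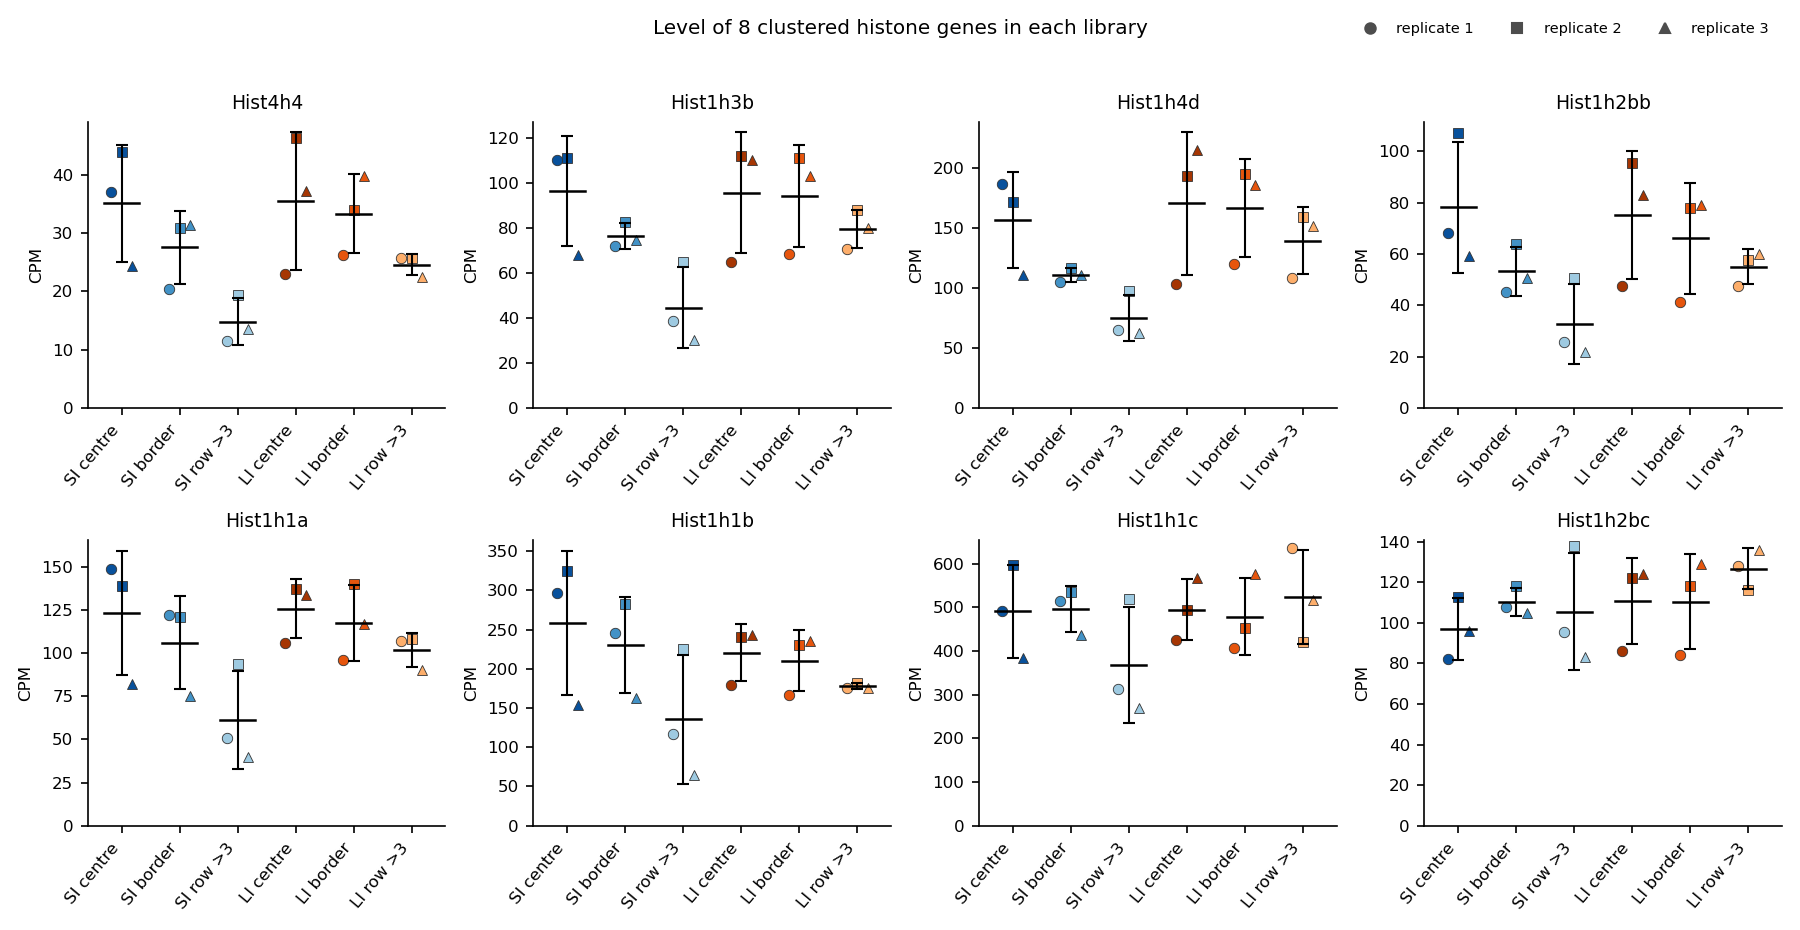
CPM of 8 clustered histone genes in each library, with the replicate number as the symbol and mean ± SD in black. Hist4h4, Hist1h3b and Hist1h4d in SI row >3 lie below every SI centre library, whereas Hist1h1c and Hist1h2bc overlap between these groups.

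The difference between SI row >3 and centre was also summarised over features of the sequence and annotation, as medians of the log2 fold change for members of at least 1 CPM. It was -0.86 in 17 members with more than 50% of their windows shared and -0.84 in 37 with at most 50%, and -0.78 in the 13 with under 10% shared. It was -0.86 in 35 members with a stem-loop found and -0.86 in 21 where none was found. Where the annotated transcript ran more than 100 bases past the stem-loop it was -0.71 (18 members), and -0.97 where it did not (17 members). By name it was -0.92 in 47 Hist1 members and -0.67 in 6 Hist2 members, while the 2 Hist3 members lay at -1.17 and 0.49 and Hist4h4 at -1.24. No test was made between these sets. A stem-loop that was not found need not be absent. Some GENCODE models are shorter than the RefSeq gene, such as that of Hist1h4k with 312 against 409 bases. Hist1h2bm and Hist1h2bh had no model to search. The 2 medians by stem-loop therefore do not compare genes with and without one.

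In border against centre cells of the SI, no member was called by edgeR, beside 0.0112% of all genes in either direction, and none by DESeq2. At an unadjusted p under 0.05 in edgeR there was 1 member. Here and below, shares of all genes count calls at the adjusted p. Counts of members at an unadjusted p therefore have no share to be set against. The median over 66 members was -0.29, with 54 below 0. The members with the smallest p were Hist1h4h (log2 fold change -0.68 ± 0.29, SE, unadjusted p = 0.0323 in edgeR) and Hist1h2bf (-0.68 ± 0.35, unadjusted p = 0.0663), which were not called. With the replicate block Hist1h3e (-0.57 ± 0.13, SE, adjusted p = 0.0288 in edgeR), Hist1h4h (adjusted p = 0.0496) and Hist1h2ah (adjusted p = 0.0499) fell, beside 0.767% of all genes called lower. Centre libraries had 80.4, 86.3 and 48.2 CPM of Hist1h3e and border libraries 47.2, 65.3 and 33.2, lower in each replicate number. Sums of goblet, absorptive and tuft cell genes were higher in border than in centre libraries in each number. In SI border they were 9029, 4465 and 14104 CPM for goblet, 697, 401 and 1327 for absorptive and 1142, 364 and 563 for tuft cell genes. Enteroendocrine sums (320, 304 and 59.7 CPM in SI border) and the low immune and stromal sums were also higher in each number. Paneth sums were 3674, 6415 and 581 CPM in SI border, lower than in centre in replicates 2 and 3. The part of these markers in the histone values was not tested. Without SI replicate 3, and without the block, no member was called by edgeR, with 4 at an unadjusted p under 0.05, beside 0.0573% of all genes called lower. With the block and without SI replicate 3 members were called, and their count is given with the other alternatives below. Over the 56 members of at least 1 CPM the median log2 ratio of border to centre was -0.27 in replicate 1 and -0.42 in replicate 2 but 0.13 in replicate 3.

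In row >3 against border cells of the SI no member was called by edgeR, beside 0.764% of all genes called lower. DESeq2 called 3. At an unadjusted p under 0.05 in edgeR there were 17 members, for which no share of all genes is given. The median was -0.59 and 59 of 66 lay below 0. Hist1h2ad (13.2, 9.03 and 9.58 CPM in SI border) had a log2 fold change of -1.20 ± 0.32 (SE, adjusted p = 0.0564 in edgeR), and Hist1h3a (22.1, 28 and 30.8 CPM in SI border) one of -0.99 ± 0.27 (adjusted p = 0.0659), and neither overlapped between the groups. With the block 31 members were called lower, beside 4.33% of all genes. They were led by Hist1h1b, Hist1h2af, Hist1h1a, Hist1h2bn and Hist1h3b, with log2 fold changes between -0.82 and -0.91 and adjusted p between 0.00125 and 0.00296 in edgeR. Without SI replicate 3 none was called by edgeR, beside 2.56% of all genes called lower, and 13 had an unadjusted p under 0.05. With the block added 13 were called. Leaving out SI row >3 replicate 2 gave 16 calls, and leaving out SI border replicate 3 gave 1. No share of all genes is given for these fits, for DESeq2 here or for the block without SI replicate 3.

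In row >3 against centre cells of the LI no member was called, with none at an unadjusted p under 0.05 in edgeR and none called by DESeq2, beside 0.0187% of all genes called in either direction. The median was -0.29 and 57 of 66 lay below 0. Hist4h4 (log2 fold change -0.53 ± 0.27, SE, unadjusted p = 0.0563 in edgeR) and Hist1h2aj (-1.57 ± 0.80, unadjusted p = 0.0625, at up to 2.38 CPM and annotated as an unprocessed pseudogene) had the smallest p and were not called. With the block again no member was called, beside 1.31% of all genes called lower, and 15 members had an unadjusted p under 0.05. With the block and without SI replicate 3 members were called, and their count is given with the other alternatives below. In 27 members row >3 was lower in every replicate number, beside 15.4% of all genes. Of these, 23 were also lower in every number in the SI, where 52 of all 66 members were. No background was computed for this overlap. By number, 27 of 56 members of at least 1 CPM were lower in replicate 1, 55 in replicate 2 and 52 in replicate 3. Hist1h4d had 103, 194 and 215 CPM in LI centre and 108, 159 and 152 in LI row >3, and Hist1h3b had 64.6, 112 and 110 in LI centre and 70.7, 87.7 and 80.1 in LI row >3. In both genes LI centre replicate 1 was the lowest centre library and lay below its row >3 counterpart.

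In LI border against centre no member was called, with none at an unadjusted p under 0.05 in edgeR and none by DESeq2, beside 0.00% of all genes. The median was -0.08, and Hist1h1t and Hist3h2ba, both under 3 CPM in every library, had the smallest p (unadjusted 0.197 and 0.251 in edgeR's fit across all genes). In LI row >3 against border the median was -0.23 and none was called, with 1 at an unadjusted p under 0.05 in edgeR and none by DESeq2, beside 0.00% of all genes. Hist1h1t (unadjusted p = 0.044 in edgeR, at 0 to 20 counts) and Hist1h3g (-0.55 ± 0.33, SE, unadjusted p = 0.109) had the smallest p there.

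**Figure D4:**
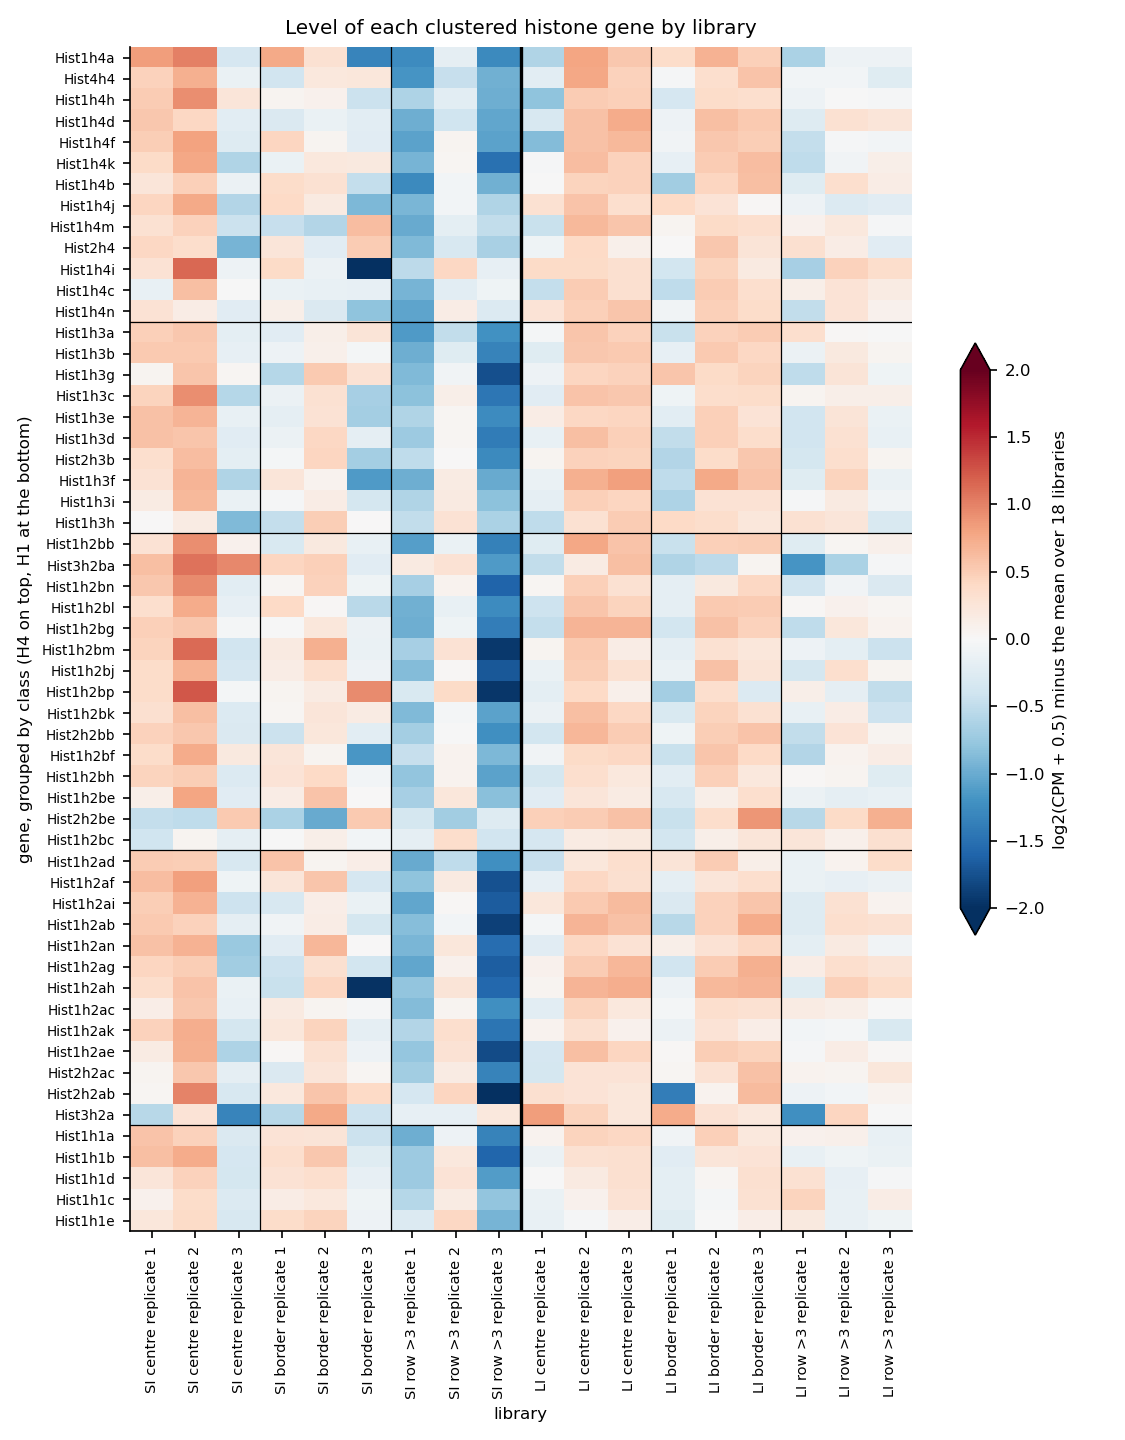
Level of the 56 clustered histone genes of at least 1 CPM in each library, as log2(CPM + 0.5) minus the gene's mean over the 18 libraries, with genes grouped by class and the SI to the left of the thick line. SI row >3 replicates 1 and 3 are low in nearly all rows, SI row >3 replicate 2 less so, and Hist1h2bc, Hist2h2be and Hist3h2a do not follow the other rows.

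The difference between the sites in this change was tested as SI effect minus LI effect. For row >3 against centre no member was called by edgeR, with 4 at an unadjusted p under 0.05, and none by DESeq2, beside 0.00% of all genes, while the median over 66 members was -0.53 and 57 lay below 0. The smallest p belonged to Hist1h2ad (-1.26 ± 0.43, SE, unadjusted p = 0.00766 in edgeR) and Hist1h3a (-1.01 ± 0.38, unadjusted p = 0.0144), which were not called. With the replicate block 4 members were called lower, beside 0.808% of all genes. They were Hist1h4h (-1.03 ± 0.25, SE, adjusted p = 0.0321), Hist1h3b (-0.90 ± 0.22, adjusted p = 0.0389), Hist1h2bb (-0.88 ± 0.22, adjusted p = 0.0396) and Hist1h4d (-0.81 ± 0.20, adjusted p = 0.043). Without SI replicate 3 none was called by edgeR, beside 0.699% of all genes called lower, and 7 had an unadjusted p under 0.05. With the block added 8 were called, and no share of all genes is given for that fit. For border against centre the median difference was -0.18 and no member was called, with 1 at an unadjusted p under 0.05 in edgeR and none by DESeq2, beside 0.00% of all genes. Hist1h1t (unadjusted p = 0.0409 in edgeR) and Hist1h4h (-0.65 ± 0.41, SE, unadjusted p = 0.131) came first.

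Between the sites at the same level, centre cells had overlapping sums, with 4385 ± 1207 CPM in the SI and 4255 ± 775 in the LI (SD, n = 3), a ratio of 1.03, or 1.18 without SI replicate 3. No member was called by edgeR, with 1 at an unadjusted p under 0.05, and none by DESeq2, beside 1.99% of all genes in either direction. The median was -0.01, but 0.05 in DESeq2, 0.03 with scaling by library size alone and 0.23 without SI replicate 3. Without these libraries again none was called by edgeR, with 9 at an unadjusted p under 0.05, beside 10.9% of all genes. Hist1h1t (unadjusted p = 0.0388 in edgeR) and Hist3h2a (log2 fold change -1.26 ± 0.62, SE, unadjusted p = 0.0559), both under 3 CPM, came first. In border cells none was called by edgeR, with 1 at an unadjusted p under 0.05, and none by DESeq2, beside 1.75% of all genes, and without SI replicate 3 none, with 3 at an unadjusted p under 0.05, beside 8.10%. The median was -0.26, and -0.05 without SI replicate 3. Hist1h4d had 105, 117 and 111 CPM in SI border and 120, 195 and 186 in LI border, all SI libraries below all LI libraries (log2 fold change -0.59 ± 0.26, SE, unadjusted p = 0.0383 in edgeR), and Hist1h4n came next (unadjusted p = 0.0748), and neither was called.

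In row >3 cells the histone sums were 2679 ± 1239 CPM in the SI and 3747 ± 39.6 in the LI (SD, n = 3), a ratio of 0.715, or 0.85 without SI replicate 3. The groups overlapped, since SI row >3 replicate 2, at 4061 CPM, was above all 3 LI libraries (3788, 3745 and 3709). The median log2 fold change over 66 members was -0.53, 61 lay below 0, and 12 did not overlap between the groups, beside 8.69% of all genes. A single member was called, Hist1h3a, with 11.5, 18.3 and 10.9 CPM in SI row >3 and 32.8, 26.1 and 25.6 in LI row >3 (log2 fold change -1.05 ± 0.27, SE, adjusted p = 0.029 in edgeR), beside 1.32% of all genes called lower. Hist1h2ad came next (-1.06 ± 0.31, SE, adjusted p = 0.058) and was not called. More members were called with the replicate block. Their count is given with the other alternatives below, since equal numbers did not deviate together in every pair between sites in row >3 cells. Without SI replicate 3 the median was -0.24 and again Hist1h3a was the 1 member called, beside 5.36% of all genes. Without SI row >3 replicate 2 there were 13 calls, for which no share of all genes is given. Without SI row >3 replicate 1 or 3, or LI row >3 replicate 2 or 3, there was none. Without LI row >3 replicate 1 Hist1h3a was not called (adjusted p = 0.093 in edgeR).

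Genes that act with the clustered histone genes, taken from lists chosen for that role, had calls in the same comparison of the SI. Of 31 S phase genes, 27 fell in SI row >3 against centre in edgeR and none rose, with a median log2 fold change of -1.29 beside -0.85 for the members. For this list and those that follow, the share of all genes called lower in that comparison was 5.82%, and 7.09% without SI replicate 3. Without SI replicate 3, 28 S phase genes, 11 G2/M genes, 6 histone RNA factors, 13 chaperones and 3 replacement histones were called lower. In that fit 1 replacement histone was called higher. Mcm7, a subunit of the replicative helicase, fell by 1.38 ± 0.22 on the log2 scale (SE, adjusted p = 0.000219), and Pola1, the catalytic subunit of the polymerase that starts new strands, by 1.56 ± 0.25 (adjusted p = 0.000301), with the helicase gene Blm next (-1.42 ± 0.25, adjusted p = 0.000523). Of 20 G2/M genes 10 fell and none rose (median -0.80), among them Aurkb, a mitotic kinase (-1.10 ± 0.24, SE, adjusted p = 0.00331 in edgeR), and the kinesins Kif20b (-1.03 ± 0.24) and Kif11 (-1.16 ± 0.29). Of 22 genes for transcription and processing of histone RNA 7 fell and none rose (median -0.43). Slbp, the stem-loop binding protein, had 68.2 ± 11.5 CPM in SI centre and 38.5 ± 7.02 in SI row >3 (SD, n = 3), a log2 fold change of -0.82 ± 0.16 (SE, adjusted p = 0.00172 in edgeR), and 70.7 ± 4.71 and 64.5 ± 4.67 in LI centre and row >3. E2f1, an activator of S phase genes (-1.48 ± 0.31, SE, adjusted p = 0.00245 in edgeR), and Casp8ap2, a factor of the bodies where histone genes are transcribed (-0.65 ± 0.17, adjusted p = 0.011), also fell. Of 24 histone chaperones and acetylases 14 fell and none rose (median -0.73), led by Nap1l1, a chaperone of H2A and H2B (-1.69 ± 0.20, SE, adjusted p = 2.77e-05 in edgeR), and with Hjurp, the chaperone of the centromeric H3 variant (-0.72 ± 0.14, adjusted p = 0.00157), and Atrx, a chromatin remodeller (-0.75 ± 0.16, adjusted p = 0.00239).

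The replacement histones, taken here as genes outside the clusters, were tested as a list of 11. Of these, 3 fell and none rose in SI row >3 against centre in edgeR (median -0.31): H2afy2, a macroH2A gene (log2 fold change -3.32 ± 0.56, SE, adjusted p = 0.000413), H1fx, a linker histone (-1.98 ± 0.53, adjusted p = 0.0157), and H2afv, an H2A.Z gene (-0.79 ± 0.23, adjusted p = 0.0237). Their summed level was 1157 ± 121 CPM in SI centre and 1153 ± 189 in SI row >3 (SD, n = 3), with members higher and lower on average in row >3, such as H1f0 at 237 ± 17.4 and 334 ± 57.2 CPM and H2afx at 92.1 ± 28 and 64.6 ± 27.6 in these groups. In the LI no gene of the 5 lists was called in row >3 against centre by edgeR, where the median was -0.47 for S phase, -0.46 for G2/M, -0.11 for histone RNA factors, -0.32 for chaperones and -0.08 for replacement histones. With the replicate block 7 S phase genes, 5 G2/M genes and 3 chaperones fell there, beside 1.31% of all genes. In row >3 cells of the SI against the LI, Slbp (log2 fold change -0.74 ± 0.16, SE, adjusted p = 0.00988 in edgeR), Ncbp1 of the nuclear cap-binding complex (-0.77 ± 0.14, adjusted p = 0.0023), Nap1l1 (-1.28 ± 0.20, adjusted p = 0.000457) and 4 S phase genes, led by Rrm2 of ribonucleotide reductase (-1.31 ± 0.22, adjusted p = 0.00104), Rfc2 (-1.03 ± 0.19) and Pcna (-0.87 ± 0.20), were lower in the SI, beside 1.32% of all genes called lower. Leaving out SI replicate 3 gave 3 histone RNA factors, 1 chaperone and 5 S phase genes, beside 5.36%. Against border cells of the SI, row >3 cells had lower Cdk2, a kinase of S phase (-0.95 ± 0.22, SE, adjusted p = 0.0327 in edgeR), Nap1l1 (-1.11 ± 0.20), Chaf1b of the chromatin assembly complex (-1.18 ± 0.29) and 6 S phase genes, led by Mcm7 (-1.0 ± 0.21), Pola1 (-1.13 ± 0.25) and Cdt1, which loads the helicase (-1.25 ± 0.28), beside 0.764% of all genes called lower. With SI replicate 3 left out the calls there were 3 histone RNA factors, 9 chaperones, 1 replacement histone, 22 S phase and 1 G2/M gene, beside 2.56%. In centre cells, H1f0, a linker histone of resting cells, was lower in the SI than in the LI (-0.67 ± 0.17, SE, adjusted p = 0.0374 in edgeR).

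The sum of the S phase list was 2879, 2463 and 1810 CPM in SI centre and 941, 1370 and 679 in SI row >3, without overlap. The histone sum divided by it was 1.61, 2.21 and 1.7 in SI centre, against 2.45, 2.96 and 2.46 in SI row >3, where all row >3 libraries were higher. In the LI the ratio to the S phase sum was 1.49, 2.26 and 2.35 in centre and 2.94, 2.14 and 2.46 in row >3, which overlap. With the core classes alone the SI ratios to the S phase sum were 0.954, 1.34 and 0.997 in centre and 1.31, 1.59 and 1.31 in row >3, which overlap, and with H1 alone 0.659, 0.871 and 0.699 in centre and 1.15, 1.37 and 1.14 in row >3, which do not. The sum over all members divided by that of the G2/M list was 1.08, 1.13 and 0.939 in SI centre, against 1.03, 1.19 and 1.31 in SI row >3, and 0.872, 1.06 and 1.31 in LI centre, against 1.45, 1.07 and 1.3 in LI row >3, and the groups overlapped in both sites.

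**Figure D5:**
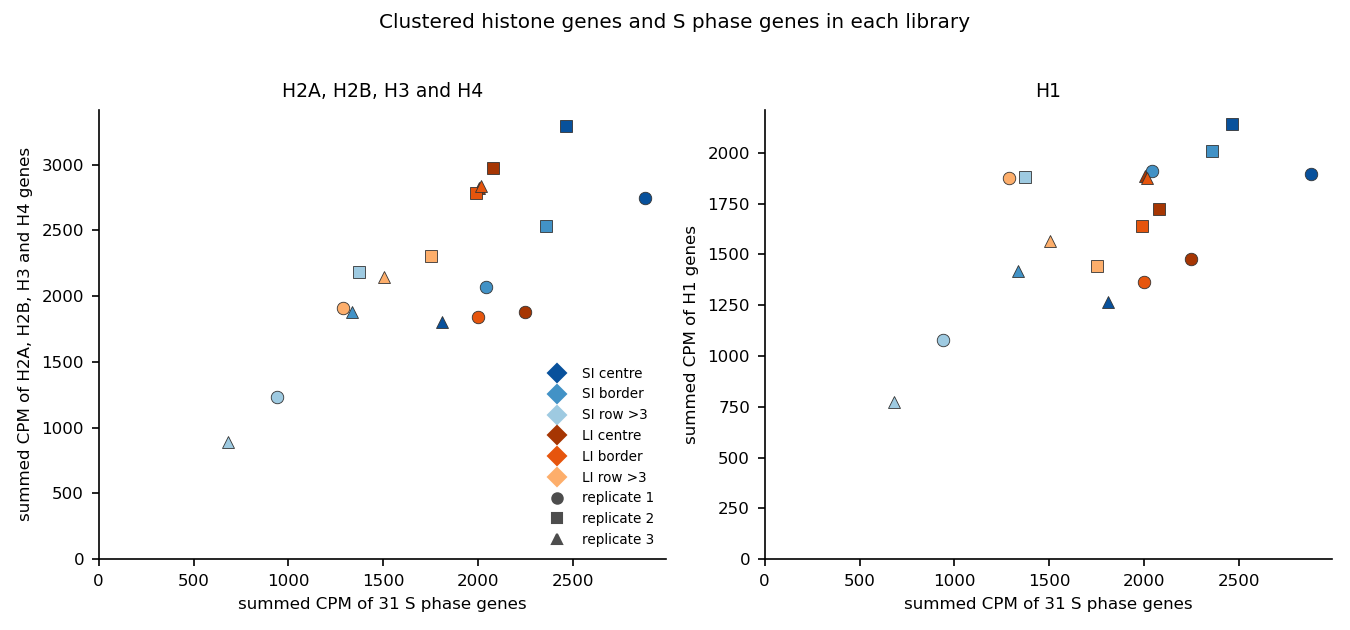
Summed CPM of the H2A, H2B, H3 and H4 genes (left) and of the H1 genes (right) against the summed CPM of 31 S phase genes in each of the 18 libraries, by group (colour) and replicate number (symbol). SI row >3 replicates 1 and 3 are lowest on both axes in both plots, and the libraries share the scaling to CPM, so no correlation is given.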

How the data were processed

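The authors demultiplexed the reads with bcl2fastq, trimmed them with Skewer and aligned them to mm10 with STAR. Raw counts for each gene in the 18 libraries, as deposited, were used here. Their second table, counts scaled by a factor per library, was not used. Which annotation release was counted, and on which strand, is not stated there.

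CPM are counts scaled to library totals with TMM factors. Differences were tested with edgeR 4.0.16 in R 4.3.3 (quasi-likelihood, robust option, legacy = FALSE), on 26717 genes with a mean count above 0, with all 6 groups fitted together (residual degrees of freedom, 12). A call is an adjusted p (Benjamini-Hochberg, over all genes) below 0.05. The authors used DESeq2, run here (1.42.0) as an alternative. The scripts were tested on simulated data. Other alternatives were no filter, filterByExpr, RLE factors, library size only, the groups compared only, the replicate block and each library left out. The legacy fit, and the block without SI replicate 3, were chosen after seeing the data.

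Equal replicate numbers were taken as pairs within a site. Deviations from the group mean correlated between 0.358 and 0.783 over 9 such pairs in the SI and between 0.444 and 0.684 over 9 in the LI (10223 genes). Between sites they lay at 0.184 to 0.271 in border, 0.0196 to 0.314 in centre and -0.0296 to 0.332 in row >3 cells. Equal numbers were therefore read as pairs between sites in border cells only. The block fit of SI against LI nonetheless used the number across sites at all 3 levels.

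The members and lists were chosen with earlier results of these data known. Named are the 3 members per class with the highest mean, up to 5 called members per direction and comparison by smallest adjusted p (otherwise the 2 with the smallest p), members of special roles, and up to 3 called genes per list and comparison. Members that the block called, and genes named for a ratio, were added after their values were seen. Transcripts and positions are from GENCODE M21, promoters from RefSeq (GRCm38.p6). Figures were drawn with matplotlib 3.10.9.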

Additional observations from a re-analysis of the deposited data

Results flagged for a closer look

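The difference in effect between the sites (row >3 against centre, SI minus LI) was called in 4 clustered histone genes when the replicate number was a block in edgeR's fit. The log2 difference was -1.03 for Hist1h4h, -0.90 for Hist1h3b, -0.88 for Hist1h2bb and -0.81 for Hist1h4d. Without the block the adjusted p of these genes was 0.663, 0.672, 0.876 and 0.752 in the same order, and in the fit without the block that left out SI replicate 3 it was 0.443, 0.331, 0.766 and 0.473. In each of the 4 genes row >3 lay below centre in all 3 replicate numbers of the SI, and in replicates 2 and 3 of the LI. The difference is not particular to histone genes. In the same block fit, genes of the S phase, chaperone and histone RNA lists were also called lower. Examples are Mcm7 (-0.92), Nap1l1 (-0.94) and Slbp (-0.70), beside 0.808% of all genes.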

How the results depend on the processing

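No clustered histone gene was called in LI border against centre, LI row >3 against border, or SI against LI in centre or border cells under any alternative run, nor for the site difference in border against centre. The block without SI replicate 3 was not run for SI against LI at the same level. In SI row >3 against centre the 12 calls became 26 with DESeq2, 19 with filterByExpr, 5 with the groups compared only and 24 without SI replicate 3, and lay between 2 and 39 with 1 library left out. In SI row >3 against border the 0 calls became 3 with DESeq2, 1 with filterByExpr and 2 with the legacy fit, and lay between 0 and 16 with 1 library left out. In row >3 cells, SI against LI, the 1 call became 3 with DESeq2, 2 with filterByExpr and 2 with the groups compared only, and lay between 0 and 13 with 1 library left out. The causes of these shifts were not tested. The shares of all genes called in the fits with 1 library left out are not given here.

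With the replicate block the calls were 3 in SI border against centre, 44 in SI row >3 against centre and 31 in SI row >3 against border. They were 8 in row >3 cells of SI against LI and 4 for the site difference in row >3 against centre. For SI against LI the block used equal numbers across sites, which in row >3 cells did not deviate together in every pair. No share of all genes is given for the 8 calls in these cells. With the block and without SI replicate 3 the calls were 5, 45 and 13 in the 3 SI comparisons above, in the same order. They were 4 in LI row >3 against centre and 8 for the site difference in row >3 against centre. No share of all genes is given for that fit, so its counts are not set against all genes. The block changed no other count.

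The fold changes of Hist4h4, Hist1h3a, Hist1h3b, Hist1h2ad and Hist1h4h in SI row >3 against centre kept their sign in every alternative, and those of Hist4h4 and Hist1h3a their call. Scaling by library size alone moved the median of 12977 genes over 1 CPM by -0.19 in SI row >3 against centre and by -0.12 in LI row >3 against centre, where the histone medians became -1.04 and -0.40. The LI row >3 sum was 3663 CPM with RLE factors and 3595 with library size only. Sums over the members are a description and were not tested. Members under 1 CPM are limited by counting error, and 9 of these 13 also by shared sequence.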
